A study of Mus musculus with 4 samples.

Results

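The centromere-proximal ends of the mouse autosomes are described here as the 100 kb bins from 3000001 to 8000000 of chromosomes 1 to 19 on the mm8 build, in which the assembled sequence of nearly every chromosome begins after 3 Mb. The members were chosen by position alone: 50 bins on each of 19 autosomes gave 950 bins, of 24064 autosomal bins in all. Each bin's value is its level, the number of distinct read positions divided by the median 100 kb bin of the same chromosome in the same library, so that a level of 1 is the chromosome's own median and extra or missing copies of a whole chromosome cancel.

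The study sequenced DNA precipitated with total histone H3 (ChIP-seq) from 4 kinds of mouse cells, with 1 library for each. The untreated and the treated embryonic stem (ES) libraries came from the V6.5 line, of C57BL/6-129 background, which was kept on irradiated mouse embryonic fibroblasts and then for 2 passages on gelatin without them. The treated cells had received SB431542, an inhibitor of TGF-beta receptor kinases, at 10 uM for 24 h. The myotube library came from C2C12 cells, an established mouse myoblast line, induced for 48 h in 2% horse serum with selenium, transferrin and insulin. The pro-B library came from 38B9, a mouse line arrested at the pro-B stage, in normal culture. All 4 were precipitated with the same lot of 1 antibody against H3 (Abcam AB1791), and no input library was used here, so the number of DNA copies and the H3 recovered per copy cannot be told apart in any value below.

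Mouse chromosomes carry the centromere at one end. There, long arrays of minor satellite repeats bear the nucleosomes in which CENP-A takes the place of H3, and next to them lie major satellite arrays packed as constitutive heterochromatin, whose H3 is methylated at lysine 9. Genome builds leave these arrays out as a gap of fixed size. The first assembled bases after such a gap are often rich in repeats and duplicated segments.

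The libraries held between 13102915 and 13852985 distinct positions of reads with 1 reported place. Within a library the median bin ranged over chromosomes from 548 to 654 positions (untreated ES), 544 to 720 (SB431542-treated ES), 388 to 682 (myotube) and 450 to 591 (pro-B). Of the 950 bins, 882 passed a filter of a mean of at least 100 positions over the libraries. The 68 that did not lay on 12 chromosomes, 35 of them on chromosome 14 and 14 on chromosome 7, and 9 were first bins of a chromosome. The bins nearest to the filter had means of 93.75 (left out) and 101.25 (kept). The SB431542-treated ES cells were sequenced in a different run from the other 3 samples, so treatment and run cannot be told apart. Intervals are 95% counting intervals: the libraries were amplified by PCR without molecular identifiers, so the true error is larger.

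Over the whole 5 Mb the proximal ends held fewer H3 reads than the rest of the same chromosomes. Pooled over the 19 autosomes the level was 0.875 in untreated ES cells (interval 0.872 to 0.877, 475242 positions), 0.902 in SB431542-treated ES cells (0.899 to 0.904, 498405 positions), 0.871 in myotubes (0.868 to 0.873, 444934 positions) and 0.891 in pro-B cells (0.889 to 0.894, 439043 positions). The libraries lay close together, and in each of them the pooled level was below that of the sequence between both ends, at 0.960, 0.969, 0.972 and 1.05 in the same order. The last 5 Mb of the chromosomes had 0.974, 0.9502, 0.932 and 1.08, so the pooled low level was not shared to the same extent by the other end. It rested in part on chromosomes 7 and 14. Without them the proximal level was 0.925, 0.954, 0.920 and 0.948. In SB431542-treated ES cells this was no lower than the last 5 Mb of all 19 autosomes. With no replicate library the differences between the pooled levels of all 19 autosomes exceed counting error, and their spread between libraries of 1 group is unknown.

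Single bins were mostly a little below the chromosome median. The median proximal bin had a level of 0.935 in untreated ES, 0.958 in SB431542-treated ES, 0.923 in myotube and 0.869 in pro-B cells. Below 1 lay 592, 560, 623 and 617 of the 950 bins in that order, where a chromosome's own median puts the middle.

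The low level was graded with distance from 3 Mb. The second 100 kb had a pooled level of 0.505 in untreated ES cells, and the 4 steps after it had 0.647, 0.746, 0.811 and 0.934. In pro-B cells the same 5 steps had 0.558, 0.756, 0.8997, 0.914 and 1.06. From 100 to 500 kb together the level was 0.677 (untreated ES), 0.688 (SB431542-treated ES), 0.675 (myotube) and 0.782 (pro-B), from 500 kb to 1 Mb it was 0.866, 0.898, 0.838 and 0.898, and from 1 to 5 Mb it was 0.886, 0.914, 0.882 and 0.898. All 4 libraries thus had their lowest pooled level in the second step and a level near that of the remaining 4 Mb after 500 kb.

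**Figure D1:**
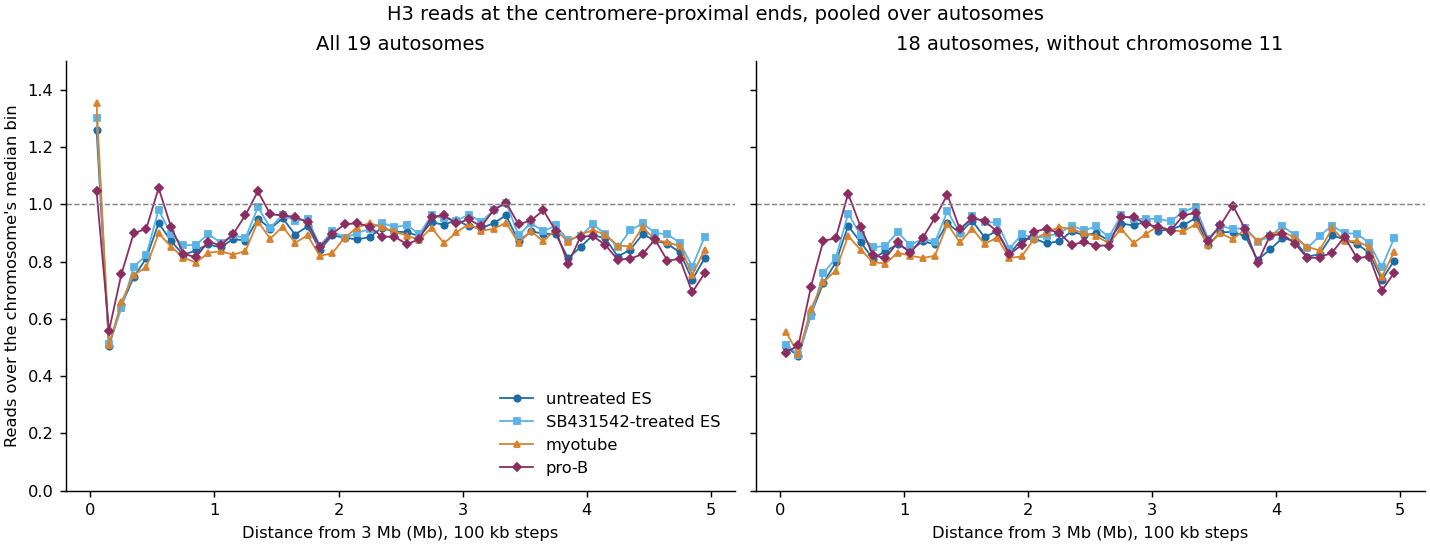
Pooled level (reads over the chromosome's median bin, vertical axis) of each 100 kb step against the distance from 3 Mb in Mb (horizontal axis), with 1 line per library and a dashed line at 1. With all 19 autosomes (left) the first step lies at 1.05 to 1.35, and without chromosome 11 (right) it lies at 0.482 to 0.554, next to the second step.

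The first 100 kb stood out from this gradient through 1 chromosome. Pooled over the 19 autosomes the first bin had a level of 1.26 in untreated ES (1.24 to 1.28, 13698 positions), 1.303 in SB431542-treated ES (14399 positions), 1.35 in myotube (13822 positions) and 1.05 in pro-B cells (10305 positions). Chromosome 11 alone gave 62.4%, 62.9%, 61.2% and 56.4% of these positions. Without it the pooled level was 0.501, 0.510, 0.554 and 0.482. The median over all 19 chromosomes was 0.472, 0.536, 0.5 and 0.520. Over the 18 chromosomes without chromosome 11 the median was 0.283, 0.311, 0.298 and 0.300. The pooled value above 1 therefore describes chromosome 11. The first 100 kb of the median autosome was low in every library, but its value depended on whether chromosome 11 was included.

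First bins differed more between chromosomes than between cell types. Chromosome 11 had 8551, 9064, 8459 and 5815 positions in its first bin (untreated ES, SB431542-treated ES, myotube and pro-B, the order used from here on), which are levels of 14.3, 15.3, 15.7 and 10.7. Chromosome 9 was next with 1274, 1413, 1399 and 1021 positions, at levels of 2.19, 2.43, 2.64 and 1.96. Chromosome 5 had 707, 828, 763 and 578. These were the fullest first bins in all 4 libraries, and those of chromosomes 11 and 9 were the only ones above 1.5 in each.

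Chromosomes 1, 2, 3, 4, 10, 17 and 18 had first bins of intermediate level. Chromosome 2 had 518, 488, 574 and 416 positions, chromosome 10 had 499, 458, 533 and 445, and chromosome 4 had 477, 450, 479 and 315. Chromosome 18 had 449, 443, 395 and 515, and chromosome 17 had 385, 401, 357 and 480. In counts these last were highest in the pro-B library, and chromosomes 2, 10 and 4 were lowest in it. Chromosome 3 had 342, 331, 405 and 264 positions and chromosome 1 had 260, 301, 272 and 285.

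The first bins of the other 9 autosomes were nearly empty, below a level of 0.1 in every library. Chromosome 13 had 53, 51, 52 and 41 positions, chromosome 15 had 48, 42, 40 and 30, and chromosome 6 had 42, 43, 36 and 32. Chromosome 12 had 34, 30, 18 and 23, chromosome 7 had 29, 25, 12 and 20, and chromosome 8 had 25, 21, 17 and 16. On chromosomes 14 (0, 2, 4 and 1), 16 (3, 2, 4 and 4) and 19 (2, 6, 3 and 4) the counts were too few for any comparison between libraries, since a count of 0 allows up to 3. So 9 of 19 chromosomes had almost no uniquely placed read in the first 100 kb, whatever the cell type.

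**Figure D2:**
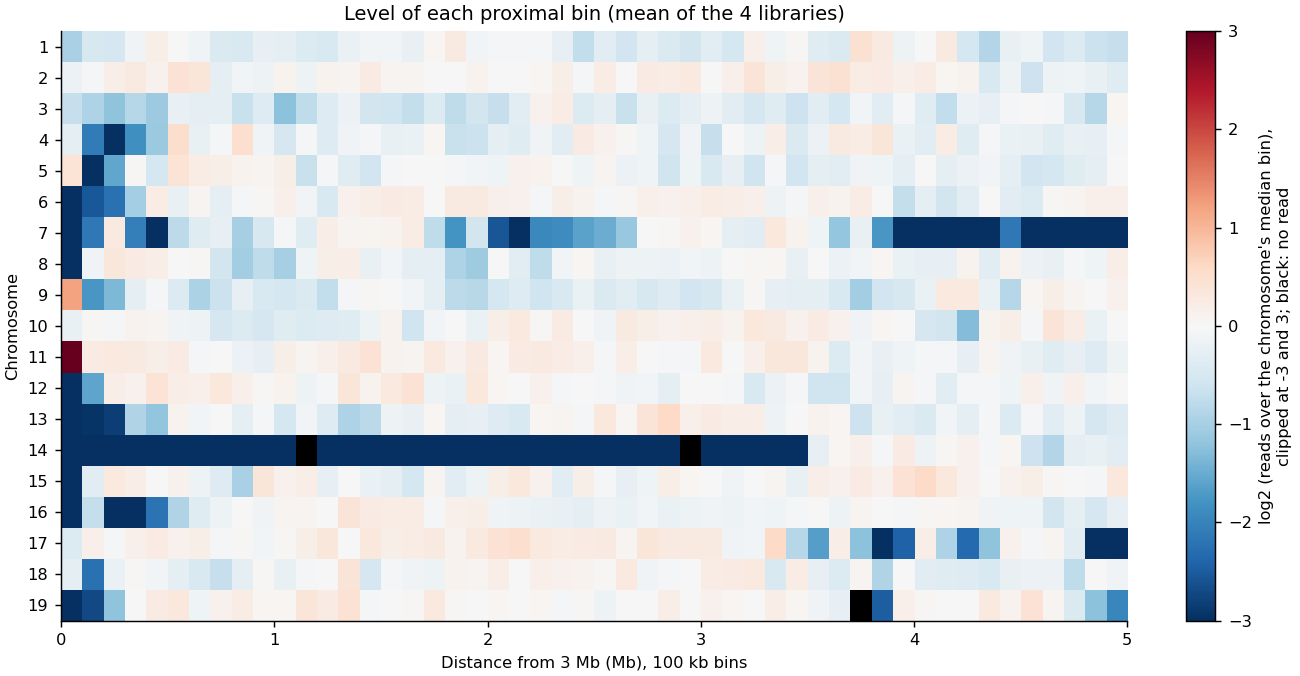
Level of each of the 950 proximal bins as the mean of the 4 libraries on a log2 scale (colour, clipped at both ends), with chromosomes as rows and the distance from 3 Mb in Mb as columns. The first bins of chromosomes 11 and 9 are red, the first bins of 9 chromosomes are dark blue, and chromosome 14 is nearly empty over its first 3.5 Mb.

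On a scale of 1 kb the high first bins consisted of short, very dense stretches. A window of 1 kb is called dense here where each of the 4 libraries had at least 5 times its chromosome's median density, a limit chosen after the data had been seen. On the autosomes 149 windows passed, which is 0.00619% of all windows, and 99 of them lay in the proximal 5 Mb. The first 100 kb of the chromosomes held 93, namely 66 on chromosome 11, 15 on chromosome 9, 6 on chromosome 4 and 3 each on chromosomes 5 and 18. No other autosome had a dense window there. From 100 to 500 kb 2 of 7600 windows were dense, from 500 kb to 1 Mb 0 of 9500 and from 1 to 5 Mb 4 of 76000. The dense windows thus lay mostly in the first 100 kb of these few chromosomes, and chiefly on chromosome 11, whose main stretch began 32 kb after 3 Mb. Without the dense windows the first 100 kb had levels of 0.321, 0.316, 0.358 and 0.313.

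The longest dense stretch was chr11:3032001-3100000, of 68 kb, with 64 dense windows. It held 8243, 8742, 8080 and 5514 positions, which are densities of 20.2, 21.7, 22.0 and 14.9 times the chromosome median. Both strands were used about equally, with 51.3%, 51.6%, 51.0% and 50.9% of positions on the plus strand, and 23.9%, 24.1%, 24.9% and 17.2% of the reads repeated a position already taken. The pro-B library was the lowest, at 0.738 times untreated ES (0.713 to 0.764).

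The dense stretches at the starts of chromosomes 5 and 9 looked different. At chr5:3000001-3003000 there were 661, 768, 708 and 539 positions, at 39.1, 45.4, 45.2 and 36.01 times the median, the highest density of any stretch. At chr9:3015001-3037000 there were 899, 1003, 942 and 707, at 7.02, 7.83, 8.09 and 6.18 times, and at chr9:3000001-3006000 there were 256, 292, 316 and 230. Repeats made up 75.8%, 74.6%, 79.5% and 68.7% of the reads in the chromosome 5 stretch and 76.6%, 78.5%, 79.9% and 71.1% in the longer one of chromosome 9. The plus strand held only 19.7%, 27.1%, 18.6% and 18.0% of positions on chromosome 5 and 23.5%, 30.7%, 17.6% and 20.7% on chromosome 9. The surplus of the minus strand was present in all 4 libraries at both places and not in the chromosome 11 stretch, where repeats were also fewer. Its origin was not tested.

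Smaller dense stretches lay on chromosomes 4, 18 and 17. The stretch chr4:3007001-3012000 held 252, 246, 213 and 163 positions, at 9.02, 8.79, 8.32 and 6.82 times the median. The stretch chr18:3005001-3010000 held 315, 312, 273 and 373, at 11.1, 10.6, 10.1 and 14.9 times, and was the one near 3 Mb with the highest count in pro-B cells, at 1.34 times untreated ES (1.15 to 1.56). Its reads repeated a position more often in the pro-B library (81.9%) than in the others (54.2%, 58.4% and 45.4%). The stretch chr17:6202001-6209000, with 229, 204, 167 and 254 positions, lay 3.2 Mb further in.

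**Figure D3:**
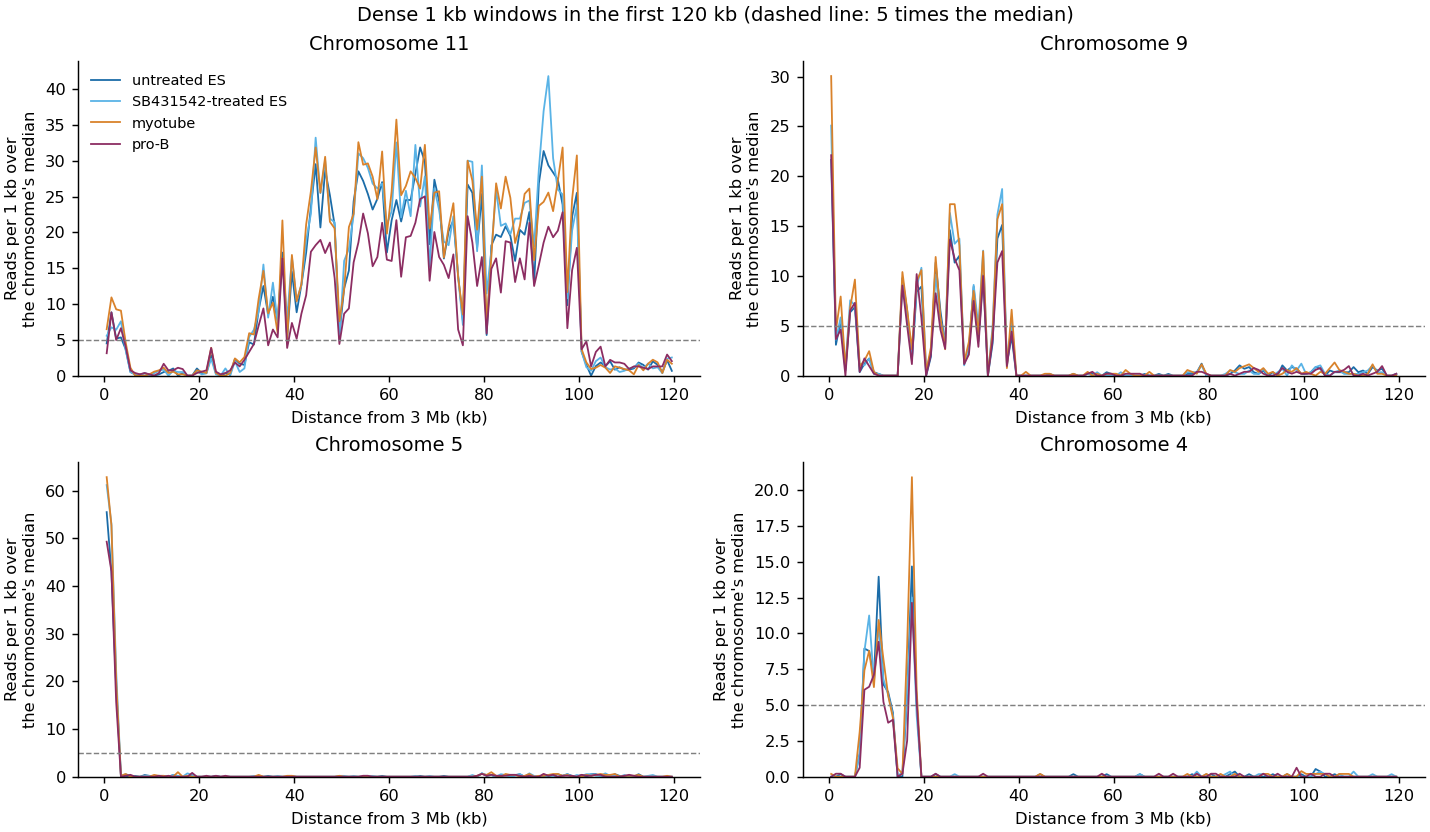
Reads per 1 kb window over the chromosome's median density (vertical axis) against distance from 3 Mb in kb (horizontal axis) for the first 120 kb of chromosomes 11, 9, 5 and 4, with 1 line per library. The chromosome 11 stretch spans 68 kb at about 15 to 22 times the median and ends near 100 kb, whereas the chromosome 5 stretch is 3 kb long.

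Windows with no distinct position in any library were the counterpart of the dense ones. They made up 40.2% of the 1 kb windows in the first 100 kb, 17.8% from 100 to 500 kb, 9.28% from 500 kb to 1 Mb and 10.6% from 1 to 5 Mb, against 6.74% of all autosomal windows. Such a window can hold no sequence in the build, or only sequence present at 2 or more places, and which applied was not tested. Counted per window with a read, the level of the 5 Mb was 0.955, 0.981, 0.943 and 0.965, and that from 100 to 500 kb was 0.793, 0.802, 0.782 and 0.911. The 100 to 500 kb stretch thus stayed below 1 on this scale too, while the 5 Mb as a whole lay nearer to 1.

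Chromosomes 14 and 7 had the longest stretches with few reads. Chromosome 14 had levels of 0.319, 0.322, 0.285 and 0.237 over its 5 Mb, and 57.6% of its windows were empty. Its 35 bins from 3000001 to 6500000 all had means under 100, and the next bin, from 6500001, had 488, 559, 445 and 366 positions. The bins from 4100001 and 5900001 had no 1-place read in any library, as did the bin from 6700001 on chromosome 19. On chromosome 7 the level was 0.540, 0.555, 0.498 and 0.566, with 30.3% empty windows. There the bins from 6900001 onward held at most 47 positions in any library, except that from 7400001 with 122, 122, 92 and 98. The 8 bins with the lowest mean level, those without a read aside, all lay on these chromosomes, with 0 to 5 positions each.

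Per window with a read, chromosome 14 had 0.720, 0.724, 0.644 and 0.525 and chromosome 7 had 0.745, 0.767, 0.685 and 0.771, the lowest of the 19 autosomes in both ES libraries and in myotubes. In pro-B cells chromosomes 3 (0.724) and 16 (0.748) were also below chromosome 7. At the other extreme chromosome 11 had 1.309, 1.333, 1.305 and 1.319 per window with a read. Chromosomes 2 (1.038, 1.053, 1.069 and 1.076) and 17 (1.049, 1.033, 1.017 and 1.158) were also above 1 in each library on this scale. Counted over all windows, chromosome 11 had levels of 1.29, 1.32, 1.29 and 1.31 and chromosome 2 had 1.02, 1.05, 1.07 and 1.08. On that scale only these chromosomes were above 1 in each library. Chromosome 11 had the smallest share of empty windows, 2.96%.

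Outside the first bins, the mean over the libraries was only moderately high. Besides those of chromosomes 11 and 9 the 8 highest mean levels were at chr13:5800001-5900000 (733, 921, 697 and 969 positions), chr17:6300001-6400000 (892, 826, 506 and 1014), chr15:7000001-7100000 (802, 886, 836 and 932), 2 bins of chromosome 4 from 3500001 and 3800001, and chr17:5100001-5200000 (712, 676, 739 and 942). Their mean levels lay between 1.419 and 1.507. None of them was at least 1.5-fold above the median in all 4 libraries. In the pro-B library alone single bins reached higher, with levels of 2.15 at chr2:6600001-6700000 and 2.13 at chr19:4100001-4200000, both named after their values were seen.

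By that rule of size, at least 1.5-fold above in every library, 2 of the 882 bins tested were high, where 0.0257% of all autosomal bins were; they were the first bins of chromosomes 9 and 11. At most 1/1.5 of the median in every library were 62 bins, or 7.03%, against 3.61% of all autosomal bins and 32 of the 930 tested in the last 5 Mb. Of the low bins 19 were among the 63 tested from 100 to 500 kb and 37 among the 719 from 1 to 5 Mb. Chromosome 7 had 12, chromosome 3 had 8, and chromosomes 8, 9 and 17 had 6 each. These counts leave out the 68 emptiest bins, so they understate how often the proximal bins were low.

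The 2 ES libraries came from 1 line and differed in both treatment and sequencing run. Over the 5 Mb the treated library had 1.03 times the untreated level (1.027 to 1.035), with 15 of 19 chromosomes above 1 and a range from 0.975 on chromosome 19 to 1.09 on chromosome 9. No proximal bin was 1.5-fold higher (0.00428% of all autosomal bins were) or 1.5-fold lower (0% of all). The log2 ratio over 882 bins had an SD of 0.12, against 0.09 from counting. The most separate bins were chr13:4600001-4700000 with 429 untreated and 581 treated positions, at 1.32 times, and chr19:3200001-3300000 with 298 and 237, at 0.785 times. Bins of chromosomes 17, 18, 7 and 9 were the other 4 highest, at 1.27 to 1.29 times. On chromosomes 17 (89 and 114 positions) and 18 (103 and 137) the intervals included 1, at 0.969 to 1.72 and 0.987 to 1.67. Bins of chromosomes 16 (2), 11 and 12 were the other 4 lowest, at 0.797 to 0.818 times. The pooled ratio of 1.03 holds both treatment and run, and no pair of like-treated libraries gives a baseline for it.

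Myotubes had nearly the same pooled proximal level as untreated ES cells, at 0.995 times (0.991 to 0.999). By chromosome the ratio ran from 0.893 on chromosome 14 to 1.09 on chromosome 8, where 8 of 19 were above 1, and scaled to all autosomes instead of its own median chromosome 8 lay at 0.956. No proximal bin was 1.5-fold higher, against 0.877% of all autosomal bins, and 4 were lower, or 0.454% of those tested, against 0.492%. On the scale of all autosomes 15 bins were lower, or 1.7%, against 1.88% of all, and 2 were higher, or 0.227%, against 1.29%. On both scales the share of lower bins was near that of all autosomal bins, and it is not read as a property of the proximal ends.

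Of these 4 bins 3 formed a run, chr17:6200001-6500000, with 1828, 1696, 1034 and 1926 positions. The myotube count was the lowest of the 4, at 0.605 times untreated ES (0.560 to 0.653), and the treated ES and pro-B libraries lay at 0.934 and 1.11 times. The lowest single bin was chr17:6400001-6500000 with 379, 315, 181 and 332 positions, at 0.511 times. The 2-place lines, from reads with 2 reported places, were fewest in myotubes as well, with 1352, 1239, 705 and 1759 in the bin from 6200001 and 1329, 1205, 785 and 1656 in that from 6300001. The last of the 4 was chr19:6800001-6900000, beside the bin without reads, with 131, 133, 67 and 94 positions, at 0.565 times. Next lowest was chr13:4500001-4600000 at 0.705 times. The highest myotube ratios were at chr8:6800001-6900000 (565, 764, 671 and 472 positions, 1.44 times) and chr2:7000001-7100000 (580, 661, 738 and 611, 1.36 times), and the other 3 of the 5 highest lay on chromosomes 8, 2 and 18 at 1.31 to 1.36 times.

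Pro-B cells differed from untreated ES cells chromosome by chromosome, while the pooled proximal level was close, at 1.02 times (1.015 to 1.023). Between both ends the level was 1.05 in pro-B and 0.960 in untreated ES cells. Relative to that sequence the proximal level was thus lower in pro-B cells than in untreated ES cells. The median log2 ratio of the tested bins was -0.042 in the proximal ends and 0.053 in the rest. By chromosome the proximal ratio ran from 0.745 on chromosome 14 to 1.24 on chromosome 19, and 11 of 19 were above 1. On the log2 scale its SD over chromosomes was 0.18, against 0.08 for myotubes and 0.05 for the treated ES library. Of the bins tested 45, or 5.10%, were at least 1.5-fold higher, against 8.88% of all autosomal bins and 101 of 930 in the last 5 Mb. Lower were 27 bins, or 3.06%, against 1.63% of all. The share of higher bins was below the autosomal one on the scale of all autosomes as well, at 4.76% against 9.79%. For lower bins the order turned with the scale, since 11 bins, or 1.25%, were lower on the median of all autosomes, against 1.87% of all bins.

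**Figure D4:**
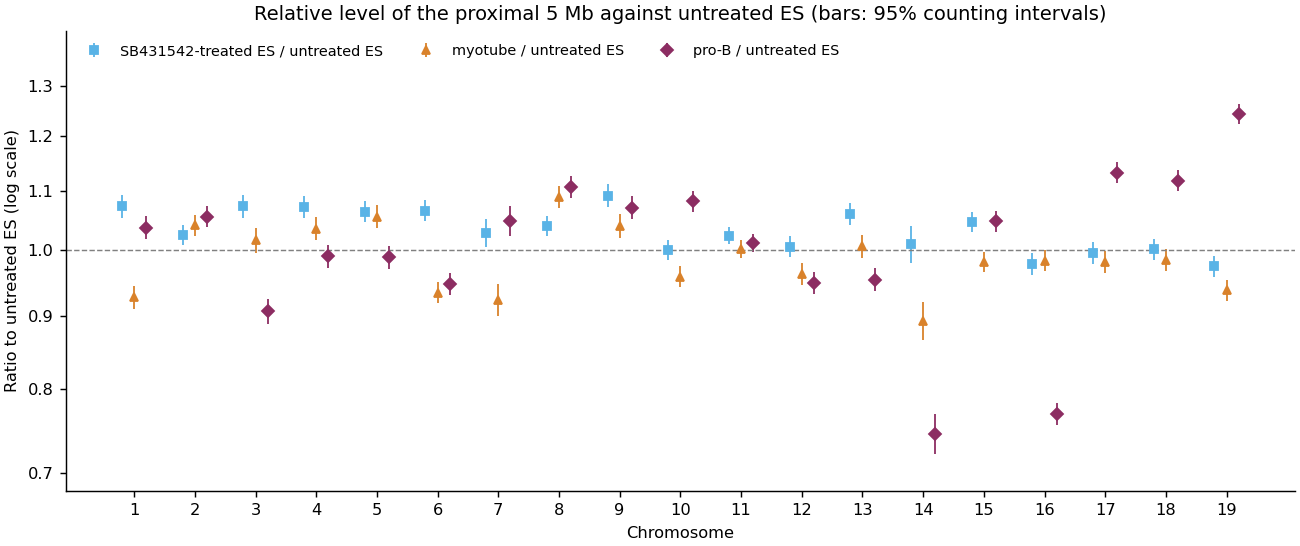
Ratio of the level over the proximal 5 Mb to that of untreated ES (vertical axis, log scale) for each autosome (horizontal axis), with 1 symbol per library and bars for 95% counting intervals. Pro-B values spread from 0.745 on chromosome 14 to 1.24 on chromosome 19, whereas the treated ES values lie between 0.975 and 1.09.

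Chromosome 16 held 21 of the 27 lower bins. Its proximal 5 Mb had 26736, 26782, 25509 and 21237 positions, and the pro-B ratio was 0.769 (0.755 to 0.783). The ES and myotube libraries were alike there, at 0.978 and 0.983 times untreated ES. Of the 47 tested bins 38 were below 1 in pro-B cells. The longest run, chr16:3500001-4100000, had 3587, 3427, 2931 and 2001 positions, at 0.540 times (0.511 to 0.570), and 2 further runs, from 5600001 to 6000000 and from 7200001 to 7600000, lay at 0.639 and 0.598 times. The 5 lowest pro-B ratios of all proximal bins were on this chromosome. The lowest was chr16:3500001-3600000 with 415, 339, 304 and 162 positions, at 0.378 times, and the others, from 3700001, 7800001, 3800001 and 3900001, lay at 0.502 to 0.551 times.

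Further along chromosome 16 the pro-B ratio was 0.880 from 8 to 13 Mb, 0.931 from 13 to 18 Mb and 1.00 from 18 to 23 Mb. The ratio was thus lowest in the stretch nearest the centromere. On the chromosome's own median it stayed below 1 up to 18 Mb. The size depended on the scale, and chromosome 16 had the highest pro-B median bin, 591. Divided by the median bin of all autosomes, the 5 Mb lay at 0.879 times and 7 bins were lower. The stretches past 8 Mb were not computed on that scale, so whether they stay below 1 there was not tested. Chromosome 14 had 3 lower bins, and none on that other scale, at 0.819 times over its 5 Mb. On its own median the next 5 Mb of chromosome 14 lay at 0.792 times (0.777 to 0.806) and the following at 1.24 times. Its low pro-B ratio thus reached past 8 Mb. Chromosomes 3, 6 and 17 had 1 lower bin each.

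Bins higher in pro-B cells were spread over 13 chromosomes. Chromosome 19 had 8, chromosome 18 had 7, chromosomes 2 and 9 had 5 each, and chromosome 17 had 4. The highest ratio was at chr9:7200001-7300000 with 548, 573, 475 and 1088 positions, at 2.22 times (2.00 to 2.47). Next were chr2:3500001-3600000 (555, 648, 696 and 1122 positions, 2.17 times) and chr2:3600001-3700000 (562, 586, 587 and 1109, 2.12 times). In each of these bins the pro-B count was far above the other 3, although the chromosome 2 bin from 3500001 was also 1.34 times untreated ES in myotubes. The bins chr9:7500001-7600000 (470, 501, 426 and 885) and chr19:4200001-4300000 (578, 554, 509 and 1116) lay at 2.11 and 2.10 times.

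Neighbouring bins were higher together at chr2:3400001-3700000, with 1668, 1798, 1834 and 3018 positions, at 1.94 times (1.83 to 2.06), and at chr9:7000001-7400000, with 2011, 2215, 1835 and 3152, at 1.754 times (1.66 to 1.86). On chromosome 19 the 5 Mb lay at 1.24 times (1.22 to 1.26), and 7 of 47 tested bins were below 1. Its ratio was 0.997 from 100 to 500 kb, 1.19 from 500 kb to 1 Mb and 1.27 from 1 to 5 Mb, so the excess began after the first 500 kb. The next 5 Mb of chromosome 19 lay at 1.28 times and the following at 1.03 and 0.927 times, so the excess there reached past 8 Mb.

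Close to 3 Mb the pro-B difference turned with distance. In the first 100 kb the pooled ratio was 0.830 (0.809 to 0.851), with 6 of 19 chromosomes above untreated ES, and from 100 to 500 kb it was 1.15 (1.136 to 1.173), with 12 of 19 above. The first of these rested on chromosome 11, at 0.750 times (0.725 to 0.776), and without it the ratio was 0.962 (0.924 to 1.00). The second did not, at 1.14 without chromosome 11, and the largest ratios from 100 to 500 kb were on chromosomes 10 (1.44) and 8 (1.37). Chromosome 8 depends on the scale: over its 5 Mb the pro-B ratio was 1.11 on its own median and 0.859 on the median bin of all autosomes.

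The dense windows, 93 of 99 of which lie in these first bins, are largely the same reads and add no separate evidence. In all they held 10665, 11341, 10580 and 7725 positions, and their ratio to untreated ES was 1.07 in the treated ES library, 1.09 in myotubes and 0.803 in pro-B cells (0.780 to 0.827). Without chromosome 11 the pro-B ratio was 0.994 (0.938 to 1.05). All other proximal windows lay at 1.02 times in pro-B cells. The stretches differed among themselves in this ratio of distinct positions. It was 0.738 on chromosome 11, 0.756 on chromosome 4 and 0.880 for the longer one of chromosome 9 (0.796 to 0.972). On chromosomes 5 and 18 it was 0.922 and 1.34, so values below and above 1 were averaged in the 0.994. Most reads of the chromosome 5 and 9 stretches repeated a position. Reads as deposited in untreated ES and pro-B cells were 10826 and 6660 (chromosome 11), 273 and 174 (chromosome 4) and 3843 and 2449 (chromosome 9). They were 2727 and 1722 on chromosome 5 and 688 and 2057 on chromosome 18. How far the contrast between stretches, and the 0.994, depend on dropping repeats was not tested.

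Reads with 2 reported places were kept apart from all values above. Such a line was read as one of a pair of positions for a read reported at 2 places, as can occur in a duplicated segment. Whether both places matched equally well was not tested. They were concentrated near the centromere: in the first 100 kb they made up 37.1%, 37.6%, 38.3% and 37.9% of all lines, from 100 to 500 kb 23.4%, 24.2%, 22.0% and 24.6%, and from 1 to 5 Mb 7.73%, 7.47%, 7.24% and 8.39%. Over the 5 Mb the share was 10.8%, 10.7%, 10.7% and 11.3%, against 5.91%, 5.96%, 5.85% and 5.75% on all autosomes and 5.60%, 5.91%, 5.47% and 7.04% in the last 5 Mb. From 500 kb to 1 Mb it was 8.47%, 8.33%, 8.21% and 8.37%. The 4 libraries were alike in this drop over the first 500 kb. Further in, the pooled share was higher again in single steps, with 14.8%, 13.4%, 10.8% and 18.0% at 3.2 Mb from the start, 16.8%, 15.8%, 15.7% and 19.2% at 3.8 Mb and 18.7%, 17.6%, 18.5% and 21.4% at 4.9 Mb, and the pro-B library had the highest share in these. Most lines of these 3 steps lay on chromosome 17, in untreated ES cells 1352 of 1809, 1350 of 1827 and 1286 of 2078. Without chromosomes 5, 9, 11 and 17 the share from 1 to 5 Mb was 5.30%, 5.33%, 5.18% and 5.40%. Over all bins of those remaining autosomes it was 5.79%, 5.85%, 5.72% and 5.66%. Reads repeating a position were frequent in the first 100 kb too, at 39.8%, 41.7%, 43.8% and 38.5% of 1-place reads.

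Among chromosomes the proximal 2-place share was highest on chromosome 17, at 32.5%, 31.5%, 29.5% and 33.6%, followed in both ES libraries and in myotubes by chromosome 9 (21.8%, 21.7%, 24.5% and 18.4%), chromosome 7 (20.3%, 20.5%, 22.7% and 20.1%) and chromosome 5 (16.8%, 16.6%, 17.7% and 15.02%). In pro-B cells chromosome 7 was above chromosome 9, and chromosome 14, at 17.9%, was above chromosome 5. It was lowest on chromosome 2, at 2.73%, 2.81%, 2.81% and 2.58%, below the 6.88% of the whole chromosome in untreated ES cells. Chromosome 17 is the site of the t complex, a proximal region known for inversions and duplications.

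The bins richest in 2-place lines were of 2 kinds. The first bins of chromosomes 9 (5323, 6070, 6640 and 3433 lines), 5 (2674, 3024, 3339 and 1620) and 11 (2763, 2774, 2685 and 1724) were rich in 1-place reads as well, and in each the pro-B library had the fewest lines. On chromosome 17 the bins from 6800001 (1350, 1376, 1316 and 1455 lines), 7900001 (1286, 1350, 1264 and 1348) and 7800001 (1177, 1087, 1181 and 1293) had nearly nothing else: 98.6%, 98.5% and 99.1% of their lines in untreated ES cells were 2-place, beside 18, 19 and 11 distinct 1-place positions. There the libraries were close, so these bins were low in 1-place reads but held H3 reads with 2 reported places. The bins from 6200001 and 6300001, named above for the lower myotube count, made up the 8.

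**Figure D5:**
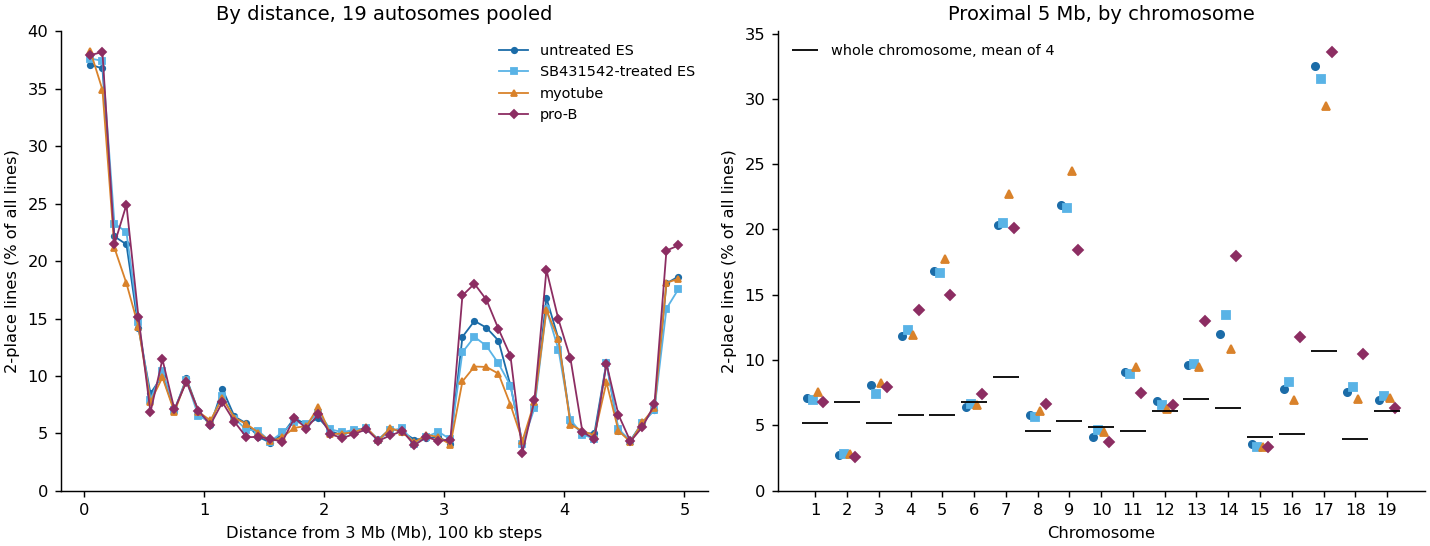
Share of 2-place lines among all lines in percent (vertical axes) against distance from 3 Mb in Mb, pooled over 19 autosomes (left), and for the proximal 5 Mb of each autosome (right), with 1 symbol per library and a black bar for the whole chromosome's mean over the 4 libraries. The share is 37.1% to 38.3% in the first step and below 10% from 1 to 3 Mb, and it reaches 21.4% again near 5 Mb. Chromosome 17 has the highest proximal share and holds most of the lines in that last step.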

How the data were processed

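Total H3 was sequenced in 4 libraries, 1 per group. The deposited files hold other values than counts: per the file headers, 1 signed position for each place of an aligned read, mapped by the authors to mm8 with Bowtie (options -e 70 -k 2 -m 2 -n 2 -l 36, best matches; the version was not stated). The 2 sections of each file were read as reads with 1 place and reads with 2 places, from their names and these options. The smallest autosomal position deposited was 3000000, so positions were taken as counted from 0 and 1 was added. Reads that repeated a position on the same strand were dropped, with Python 3.11.15, numpy 2.4.6, scipy 1.17.1 and matplotlib 3.10.9. Repeats were 2.83% (untreated ES), 5.53% (SB431542-treated ES), 3.43% (myotube) and 2.80% (pro-B) of 1-place reads. Positions were counted in bins of 100 kb and windows of 1 kb. Ratios between libraries have exact conditional binomial intervals and levels exact Poisson intervals (95%). Since each group had a single library no test was run, and bins were called by a 1.5-fold rule of size among those with a mean of at least 100 positions.

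Named are the first bin of every autosome, the 8 highest and 8 lowest bins by mean level, the 5 highest and 5 lowest ratios per comparison, and the 8 bins richest in 2-place lines. Dense windows, and runs of 3 or more neighbouring called bins, were added after the data had been seen. The members and lists were chosen with earlier results of these data known. The calls were run on simulated counts for pro-B against untreated ES, with 23365 bins. All 34 bins raised and all 34 lowered 2-fold were called, none of 33 raised or 33 lowered 1.2-fold, and none of 23165 unchanged. The simulated counts varied by counting error alone, so they cannot show how often real libraries of like cells would give a call. In the tested proximal bins the pro-B log2 ratio had an SD of 0.328, against 0.0965 from counting. The annotation at hand was of another build than mm8, so no gene was placed and no sequence was read. Alternatives tried were all reads, 2-place lines added, other medians for scaling, windows with a read only, left-out chromosomes, the median over chromosomes, other folds and another filter.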

Additional observations from a re-analysis of the deposited data

How the results depend on the processing

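No paired analysis was possible because each group had 1 library. Of 625 values under alternatives 396 stayed within counting error (counts within 1.5-fold), 208 moved and 21 crossed 1; leaving out chromosome 11, chromosomes 7 and 14 or dense windows was chosen after seeing the data. The level of the first 100 kb (mean of the libraries) was 1.24, and 0.512 without chromosome 11, 0.507 as the median over chromosomes and 0.327 without dense windows. By library these were 0.501, 0.510, 0.554 and 0.482 without chromosome 11, 0.472, 0.536, 0.5 and 0.520 as medians, and 0.321, 0.316, 0.358 and 0.313 without dense windows (untreated ES, SB431542-treated ES, myotube, pro-B), and the median ratio of the treated to the untreated ES library was 0.943. It was 2.04 with all reads, 1.76 with 2-place lines, 2.00 over windows with a read, 1.47 without chromosomes 7, 8 and 15 and 1.37 without 7 and 14. The level from 100 to 500 kb, 0.705, was 0.721 with all reads, 0.872 with 2-place lines, 0.710 scaled to all autosomes, 0.822 over windows with a read, 0.670 without chromosomes 7, 8 and 15, 0.678 without 11, 0.760 without 7 and 14 and 0.692 as a median. The level of the 5 Mb, 0.885, was 0.902, 0.941, 0.890, 0.961, 0.896, 0.861, 0.937 and 0.909 under the same alternatives in the same order, 0.882 with the median taken outside both ends and 0.867 without dense windows. It stayed below 1 in each. Over the 5 Mb the ratio to untreated ES in the treated ES library, 1.03, was 1.027 with 2-place lines and 1.036 scaled to all autosomes. That of myotubes, 0.995, was 0.988 with 2-place lines, 0.987 over windows with a read, 0.985 without chromosomes 7, 8 and 15 and 0.983 as a median. That of pro-B cells, 1.02, was 1.01 over windows with a read, 1.01 without chromosomes 7, 8 and 15, 1.03 without 7 and 14 and 1.04 as a median.

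Bins high in all libraries, 2, were 13 with 2-place lines, 1 without chromosome 11 and 1 at 2-fold. Bins low in all libraries, 62, were 40 with 2-place lines, 41 over windows with a read, 119 at 1.3-fold and 32 at 2-fold. In the treated ES library 1 bin was higher at 1.3-fold and 2 were lower with a mean of at least 20 positions required. In myotubes the higher bins, 0, were 2 scaled to all autosomes, 5 at 1.3-fold and 2 with a mean of at least 20, and the lower bins, 4, were 15, 32 and 8 under these, and 0 at 2-fold. In pro-B cells the higher bins, 45, were 101 at 1.3-fold and 8 at 2-fold, and the lower bins, 27, were 92 and 1, and 11 scaled to all autosomes. The share of 2-place lines, 10.9%, was 9.65% for distinct positions and 7.98% without the 1% of bins with the most lines. Scaled to all autosomes, 5 of 285 chromosome ratios crossed 1: chromosomes 7 (0.951) and 8 (0.859) in pro-B cells and chromosomes 8 (0.956), 10 (1.001) and 15 (1.26) in myotubes. A looser or stricter fold sets its counts by construction; for the other changes the cause was not tested. Counting error limits the first bins of 9 chromosomes, where a ratio between libraries could not be read.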

Other observations

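The X chromosome, which belongs to no autosomal value above, was also low next to its centromere. Its bins from 3 to 8 Mb held 7715 positions in untreated ES, 8080 in SB431542-treated ES, 14445 in myotube and 7438 in pro-B cells. Relative to the chromosome's own median these are levels of 0.668, 0.657, 0.634 and 0.581. The first 100 kb held 20, 23, 26 and 29 positions, at levels of 0.0866, 0.0935, 0.0571 and 0.113.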
